A study of Mus musculus with 4 samples.

Results

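The E18.5 and E13.5 samples of fetal mouse pancreatic epithelium were compared across all genes (E, embryonic day). The comparison covered every Ensembl gene at 1 FPKM or more at either stage, which left 13047 of 54532 listed genes. FPKM (fragments per kilobase, scaled by library) is a level corrected for gene length and for a size value of each library. Both samples came from wild-type C57BL/6 mice and are described as pancreas epithelium, and each was total RNA from one deposited sample per stage. No transgene or Cre is named. The sources used here give neither the way the epithelium was separated from its surroundings nor the number of fetuses pooled. E15.5 values of the same series are set beside these where they add to the picture, and E11.5 served only in the scaling. The files hold 1 mean per stage, so the comparison itself had no test. Instead a rule of size was used. A gene counts as higher or lower where the log2 values of scaled FPKM plus 1 are at least 1 apart, a 2-fold difference, and the larger level reaches 5 FPKM. All levels below are scaled FPKM, and differences are E18.5 minus E13.5 on that log2 scale, where the added 1 shrinks the differences of genes at low levels.

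Each deposited mean was found to average 2 libraries of whole reads, and most means could be split back into them. A value after ± is the SD of those libraries (n = 2), and genes without one, among them the most abundant enzymes and hormones, could not be split and had no test. Whether the libraries derive from different embryos is not labelled. SDs and limma p-values therefore cover just the scatter of these libraries, which may be technical. The estimated reads of both libraries together were 33825850 at E13.5 and 28867804 at E18.5. The library size values within the deposited FPKM were 18597751 and 16434175 at E13.5, together above those reads. At E18.5 they were 13342988 and 13280757, together below those reads. The size values were thus not plain counts of these reads. Among genes at 5 FPKM or more that could be split, a 2-fold gap between libraries was seen for 24 of 5519 (E13.5) and 22 of 6057 (E18.5). The number of Xist reads per Y-linked read was 0.910 and 0.917 in the E13.5 libraries and 0.367 and 0.339 in those at E18.5. The ratio thus differed more between the stages than within either.

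By midgestation the pancreatic epithelium holds multipotent cells at the branch tips and bipotent cells in the trunk. During the secondary transition, tip cells become acinar cells, which make digestive enzymes and store them in zymogen granules. Trunk cells become ducts or switch on Neurog3, leave the epithelium and form the hormone cells of the islets. E13.5 lies near the start of this period and E18.5 just before birth.

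The markers chosen for the pancreatic cell types were present at both stages. The beta cell hormone Ins2 was at 28.99 ± 5.17 at E13.5 and 5328 at E18.5, the alpha cell hormone Gcg at 2402 at E13.5 and 15766 at E18.5, the duct gene Spp1 at 4419 at E13.5 and 16980.0 at E18.5 and the acinar lipase Cel at 144 at E13.5 and 3549 at E18.5. Slc38a5, an amino acid transporter used as an alpha cell marker, went the other way, at 745 at E13.5 and 291 at E18.5. The epithelial adhesion genes Epcam and Cdh1 were at 768 and 858 and at 64.8 ± 2.14 and 75.3 at the 2 stages in that order. Of the endothelial markers, Pecam1 was at 0.0132 and 0.00626, Cdh5 at 0.00705 and 0, and Kdr at 0.00908 and 0, while Egfl7, the highest of that list, was at 13.7 ± 0.262 at E13.5 and 9.30 ± 0.0925 at E18.5. Among leukocyte markers, Ptprc was at 0.00143 and 0.0277 but C1qa, a macrophage complement gene, at 13.3 ± 1.33 and 66.4 ± 3.83. Among mesenchymal markers, Pdgfra was at 0.0548 and 0.121 but the collagen Col3a1 at 0.755 ± 0.146 and 9.55 ± 0.0428. The summed level was 22.4 and 134 over the leukocyte list and 64.8 and 109 over the mesenchymal list, and both sums were higher at E18.5.

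In all, 794 genes (6.09% of those compared) were higher at E18.5 and 445 (3.41%) were lower, 1239 (9.5%) in either direction. These percentages are the background for every list below. The median log2 difference over all 13047 genes was 0.08. With the samples set to the same total FPKM instead, the log2 ratio of every gene moved by -0.45 and the split was 472 higher and 1186 lower, so the excess of higher over lower genes rests on the scaling. Of the called genes above 0 at both stages, 163 were at least 10-fold higher and 22 at least 10-fold lower. These counts leave out 10 higher genes listed at 0 at E13.5 and 4 lower genes listed at 0 at E18.5. The libraries could be tested with limma for 10898 genes, of which it called 4081 (37.4%) as risen and 2771 (25.4%) as fallen at an adjusted p under 0.05, together 6852 (62.9%). Requiring a 2-fold difference as well left 1005 (9.22%) and 456 (4.18%). Limma was run with the main scaling only. Its calls of small differences, or of none, here and below hold for that scaling, and other scalings were not tested. Limma called 610 of the 610 tested higher genes as risen and 310 of the 311 tested lower genes as fallen. That adds no support, because these genes were picked as at least 2-fold apart in the same values. Few genes had libraries that far apart within a stage. At the edge of the comparison, Morn5 was just inside at a deposited maximum of 1.0001 FPKM and Zfp960 just outside at 0.99963. At the edge of the rule of size, Map1lc3a was counted as higher at a difference of 1.0014 and Msmo1 not, at 0.99915. On the other side Vars was counted as lower at -1.0029 and Mrto4-ps1 not, at -0.99932.

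**Figure D1:**
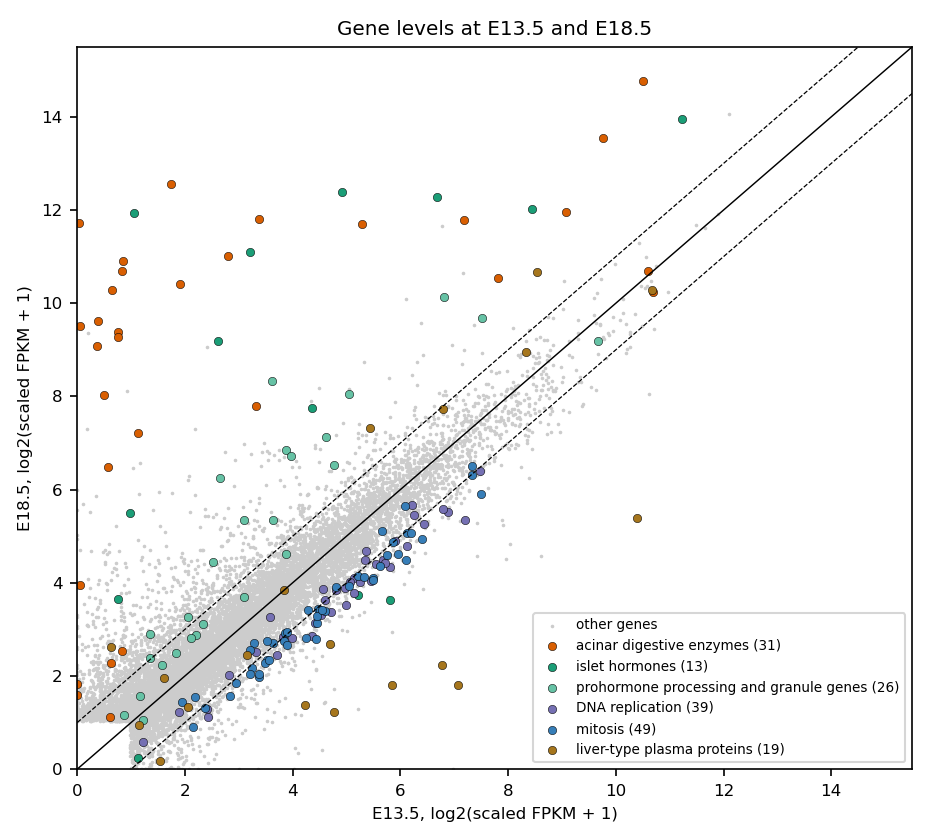
Level of each of 13047 genes at E13.5 (x axis) and E18.5 (y axis), both log2(scaled FPKM + 1), with 6 gene lists in colour. The solid line marks equal levels and the dashed lines a 2-fold difference. Most acinar enzymes and hormones lie above the upper dashed line, and 33 of the 49 mitosis genes lie below the lower one with an E13.5 level of at least 5 FPKM.

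Digestive enzymes made up most of the 15 largest increases of the comparison. Of 31 measured enzyme genes, 24 were higher at E18.5 and 0 lower, with a median difference of 6.09. The count and median take each trypsinogen and amylase copy as a separate gene, though these share much of their sequence. Their summed level was 1.91% of all FPKM at E13.5, then 23.7% at E15.5, then 17.3% at E18.5, so the sum was highest at E15.5. In bulk RNA, more cells of a type and more RNA per cell cannot be told apart, here and for every list below. The pancreatic ribonuclease Rnase1 (ENSMUSG00000035896, chromosome 14, 51144998 to 51146785, mm10) had the largest difference, from 0.0264 ± 0.0373 at E13.5 to 3372 at E18.5, a log2 difference of 11.68. Its E15.5 level was 106. The elastase Cela2a (ENSMUSG00000058579, chromosome 4, 141814962 to 141826160, mm10) was at 2.16 and 2.54 in the E13.5 libraries, at 779.8 at E15.5 and at 5995 at E18.5 (log2 difference 10.80). Carboxypeptidase B, Cpb1, was at 0.771 ± 0.172 at E13.5, then 215 at E15.5, then 1652 at E18.5. The tissue kallikrein Klk1 was at 0.287 ± 0.0615 at E13.5, then 26.2 ± 1.33 at E15.5, then 543 at E18.5, and the elastase Cela3b at 2.77 ± 0.0888 at E13.5, then 557 at E15.5, then 1362 at E18.5. These 5 were low at E13.5, higher at E15.5 and higher again at E18.5, unlike the sum of the list. Of their 50-base windows, Cela2a shares 15.6%, Cela3b 19.2% and Klk1 23.97% with other genes.

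A second group of enzymes was already abundant at E13.5. The lipase-related Pnliprp1, the most abundant transcript at E18.5, was at 1446 at E13.5, then 47651 at E15.5, then 27856 at E18.5, and the chymotrypsinogen Ctrb1 at 865 at E13.5, then 38008 at E15.5, then 11964 at E18.5. The colipase Clps followed the same order, at 538 ± 54.5 at E13.5, then 10260.0 at E15.5, then 3981 at E18.5. For these genes the E15.5 level was the highest of the 3. The carboxypeptidase Cpa1 did not pass the rule, with a difference of 0.10. Cpa1 was at 1540.3 at E13.5, then 7942 at E15.5, then 1649 at E18.5, so the E13.5 and E18.5 levels lay close together with a peak between them. Cel, in contrast, climbed through E15.5, at 144 at E13.5, then 1435 at E15.5, then 3549 at E18.5. Most trypsinogen and amylase genes are near-identical copies, and reads may be split between them in ways the values do not show. For Prss1, 54.9% of windows also occur in other genes, and its level was 0.570 ± 0.390 and 1238 at E13.5 and E18.5. Try4 (65.6% shared) was at 0.0327 ± 0.0462 and 725 ± 34.5, Prss3 (66.1%) at 0.308 ± 0.0747 and 779.9 and Try10 (40.8%) at 0.691 ± 0.289 and 619.5 ± 5.65. Try5 (47.6%) was at 9.40 ± 1.31 and 3574. Among the amylases, Amy2a1 (94.9% shared) was at 0.807 ± 0.106 and 1916, Amy2a3 (all windows shared) at 0.683 ± 0.229 and 662 and Amy2a5 (53.5%) at 0.415 ± 0.214 and 261. The direction was the same for every one of these copies, and the level of any single copy is uncertain.

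The promoters of the enzyme genes that moved together are shown for 2 members, from RefSeq on GRCm38.p6. Each is the 250 bases before the annotated start, read 5′ to 3′ on the gene's strand, which is the minus strand for both. The Cela2a window is chr4:141826006-141826255 and the Cel window is chr2:28563404-28563653. Capitals mark matches on either strand to the E box letters CACCTG and to TTTCCCA, the letters of the TC box, which are bound by the acinar complex PTF1 as background knowledge.
Cela2a: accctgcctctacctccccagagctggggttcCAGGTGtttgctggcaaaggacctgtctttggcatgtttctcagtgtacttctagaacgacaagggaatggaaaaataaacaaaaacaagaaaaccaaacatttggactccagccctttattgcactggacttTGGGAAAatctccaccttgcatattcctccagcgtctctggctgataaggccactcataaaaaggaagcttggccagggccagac
Cel: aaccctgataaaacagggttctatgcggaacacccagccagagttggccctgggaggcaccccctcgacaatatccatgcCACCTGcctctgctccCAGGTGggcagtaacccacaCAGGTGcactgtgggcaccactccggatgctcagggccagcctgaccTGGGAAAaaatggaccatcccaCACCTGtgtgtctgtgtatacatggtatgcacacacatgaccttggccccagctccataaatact
In the Cela2a window a TC box match lay 79 to 85 bases before the start and an E box match 213 to 218 bases before it, both on the opposite strand. The Cel window held a TC box match at 81 to 87 bases and 4 E box matches between 60 and 170 bases before the start. The 2 printed windows thus hold both motifs, which is not typical of the list. Among all enzyme windows found, only those of Cel, Cela2a, Cela3a and Prss2 held both. The Cpb1 window held an E box match without a TC box match, and the Ctrb1 window a TC box match without an E box match. Windows were found for 26 of the 31 measured enzyme genes. The E box letters were in 15 of them (57.7%) against 17.2% of all 32851 promoter windows of that length, and the TC box letters in 6 (23.1%) against 6.82%. Here and for the hormones below, a list holds a single window per gene, while the background holds every window of the table. Some of the enzyme genes with a match are near-identical copies, such as Prss1, Prss3 and Try4, so their matches are not independent. These are letter matches and were not tested.

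Acinar transcription factors showed no such shift. Of 12 measured factors, 1 was higher and 1 lower, and their median difference of 0.06 turned to -0.03 without further scaling and to -0.38 at equal totals. Ptf1a, the DNA-binding core of PTF1, was at 29.6 and 31.2 in the E13.5 libraries, at 119 ± 0.0133 at E15.5 and at 23.2 and 21.2 in the E18.5 libraries. It fell between the 2 ends by limma (log2 difference -0.44, SE 0.0612, limma adjusted p = 3.66e-03), a step below 2-fold. Its partner Rbpjl was at 33.2 ± 0.299 at E13.5, then 171 at E15.5, then 35.8 ± 0.190 at E18.5, and limma did not call the difference between the ends (limma adjusted p = 0.0599). Bhlha15 (Mist1), a factor of granule maturation, was at 7.13 ± 0.511 at E13.5, then 41.8 ± 1.20 at E15.5, then 11.52 ± 1.20 at E18.5 (log2 difference 0.62, SE 0.0888, limma adjusted p = 3.93e-03). These 3 factors were highest at E15.5. The factor that was higher by the rule was Creb3l1, a membrane-bound activator of secretory genes, at 3.63 ± 0.0758 at E13.5, then 11.4 ± 0.000672 at E15.5, then 14.8 ± 1.12 at E18.5. Gata4 was lower, at 13.97 ± 0.360 at E13.5, then 24.2 ± 0.385 at E15.5, then 3.83 ± 0.370 at E18.5. Xbp1, the main secretory pathway factor, was at 169 at E13.5, then 319 at E15.5, then 188 at E18.5.

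The non-enzyme products of acinar cells were higher alongside the enzymes. Of 23 measured zymogen granule and accessory genes, 17 were higher and 0 lower, with a median difference of 2.82, and limma called 17 as risen and 0 as fallen of 17 tested. The granule lectin Zg16 rose from 0.130 ± 0.0512 at E13.5 to 156 ± 5.44 at E18.5 (log2 difference 7.11, SE 0.0565, limma adjusted p = 8.62e-06). Syncollin, Sycn, which lines the granule membrane, rose from 4.33 ± 1.60 at E13.5 to 533 ± 3.50 at E18.5 (log2 difference 6.68, SE 0.209, limma adjusted p = 7.63e-05). Reg3b, a secreted antimicrobial lectin, was listed at 0 at E13.5 and E15.5 and at 63.00 ± 0.837 at E18.5. That is at least 863-fold higher, taking 3 reads over both E13.5 libraries as the floor. The water channel Aqp12 had 0 reads in the E13.5 libraries, a level of 23.5 at E15.5 and one of 46.2 ± 3.76 at E18.5, at least 603-fold higher than at E13.5. Cuzd1 rose from 0.0363 ± 0.0143 at E13.5 to 24.9 ± 0.652 at E18.5, and the secreted lectin Reg1 was at 67.95 ± 5.63 at E13.5, then 399.7 ± 24.2 at E15.5, then 1093 at E18.5. The most abundant of the remaining list members, Tmed6 and Serpini2, peaked at E15.5, at 709 and 591. They were at 104 ± 7.05 and 268 ± 2.09 and at 77.7 ± 2.55 and 181 ± 0.636 at the 2 ends.

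Part of the endoplasmic reticulum machinery was higher. Of 49 measured folding and export genes, 8 were higher and 0 lower. The median difference of 0.37 turned to -0.06 when the samples were set to the same total, so a direction for the whole list depends on the scaling. The members past the rule were led by the KDEL receptor Kdelr3, at 3.84 ± 0.391 at E13.5, then 17.4 ± 0.350 at E15.5, then 35.7 ± 0.236 at E18.5. The ER degradation factor Derl3 was at 2.91 ± 0.215 at E13.5, then 12.4 ± 0.842 at E15.5, then 21.2 ± 0.653 at E18.5, and Ero1lb, the oxidase that serves disulfide formation in beta and acinar cells, at 5.31 ± 0.145 at E13.5, then 21.8 ± 1.10 at E15.5, then 34.5 ± 0.0477 at E18.5. Herpud1 was at 35.9 ± 0.602 at E13.5, then 131 at E15.5, then 137 at E18.5 and Dnajb9, an ER co-chaperone, at 5.67 ± 0.229 at E13.5, then 11.8 ± 0.571 at E15.5, then 18.46 ± 0.148 at E18.5. The general chaperones stood close at both ends, with Pdia3 at 556 and 586, Calr at 433 and 464 and Pdia6 at 422 and 440.3. Of 10 regulators of the unfolded protein response, 3 were higher. These were Trib3 (0.879 ± 0.0583 and 7.28 ± 0.444), Ddit3, which encodes CHOP (7.14 ± 0.463 and 16.95 ± 2.15), and Ppp1r15a (39.1 ± 0.579 and 79.97). Atf4 was at 83.4 and 102 ± 1.21 and did not pass the rule.

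**Figure D2:**
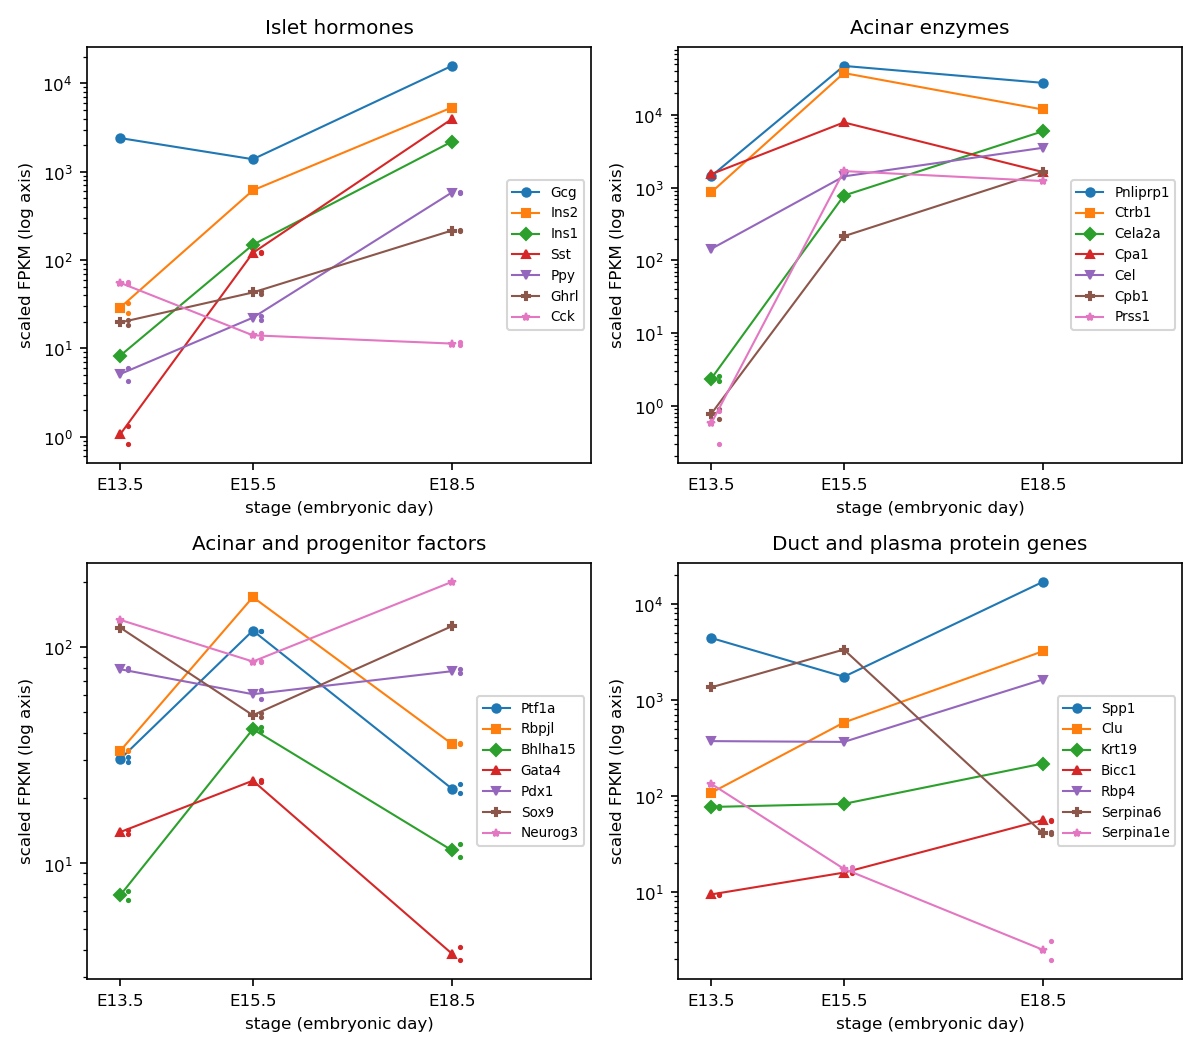
Scaled FPKM (log axis) of 28 genes at E13.5, E15.5 and E18.5, in 4 panels. Lines join the deposited means and small dots to the right show the recovered libraries where the mean could be split. Hormones are highest at E18.5 except Cck, several enzymes and acinar factors peak at E15.5, and Serpina6 and Serpina1e end lowest in their panel.

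Islet hormones formed the other strongly higher group. Of 13 measured hormone genes, 10 were higher and 2 lower, with a median difference of 3.58. The list went from 0.887% to 8.02% of all FPKM. Somatostatin, Sst (ENSMUSG00000004366, chromosome 16, 23889573 to 23890958, mm10), had the largest difference. It was at 1.31 and 0.822 in the E13.5 libraries, at 120.4 ± 1.74 at E15.5 and at 3942 at E18.5, a log2 difference of 10.90. The insulin genes came next. Ins2 (ENSMUSG00000000215, chromosome 7, 142678656 to 142743381, mm10) was at 32.6 and 25.3 in the E13.5 libraries, at 615 at E15.5 and at 5328 at E18.5, and Ins1 was at 8.27 at E13.5, then 149 at E15.5, then 2188 at E18.5. The ratio of E18.5 to E13.5 was 184 for Ins2 and 265 for Ins1. Pancreatic polypeptide, Ppy, rose from 5.97 and 4.27 to 585 and 576 in the libraries (log2 difference 6.59, SE 0.138, limma adjusted p = 3.58e-05). Amylin, Iapp, which beta cells release with insulin, was at 101 ± 7.05 at E13.5, then 438 ± 12.4 at E15.5, then 4942 at E18.5. Peptide YY, Pyy, was at 346 ± 52.7 at E13.5, then 824 ± 38.4 at E15.5, then 4157 at E18.5, and ghrelin, Ghrl, at 19.6 ± 1.53 at E13.5, then 42.9 ± 2.47 at E15.5, then 216 ± 5.54 at E18.5.

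Glucagon behaved differently from insulin over the span. Gcg was the most abundant hormone at both ends, at 2402 at E13.5 and 15766 at E18.5, 6.56-fold apart, with a lower level of 1384 at E15.5. On this per-length scale Gcg stood above the sum of Ins2 and Ins1 at both ends. The hormones that were lower by the rule of size were gastrin and cholecystokinin, the gut peptides Gast and Cck. Gast fell from 36.99 and 35.04 to 10.7 and 13.96 in the libraries (log2 difference -1.48, SE 0.127, limma adjusted p = 8.33e-04). Cck fell from 57.1 and 53.3 to 10.99 and 11.6 (log2 difference -2.19, SE 0.0556, limma adjusted p = 5.25e-05). Neither gene's libraries overlapped between the stages. Both genes were picked as at least 2-fold apart, and few genes had libraries that far apart within a stage, so this adds no support. The tachykinin precursor Tac1 was too low to pass the rule and fell from 1.20 and 1.15 to 0.161 and 0.207 in the libraries (log2 difference -0.88, SE 0.107, limma adjusted p = 2.35e-03).

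Promoter windows are shown for the hormone with the largest difference and for the insulin gene that the RefSeq table holds. The Sst window is chr16:23890845-23891094 on the minus strand and the Ins1 window chr19:52264047-52264296 on the plus strand (GRCm38.p6). Capitals mark the letters TGACGTCA, the cAMP response element, in Sst and CATCTG, an E box known from insulin promoters, in Ins1. Both were searched on both strands.
Sst: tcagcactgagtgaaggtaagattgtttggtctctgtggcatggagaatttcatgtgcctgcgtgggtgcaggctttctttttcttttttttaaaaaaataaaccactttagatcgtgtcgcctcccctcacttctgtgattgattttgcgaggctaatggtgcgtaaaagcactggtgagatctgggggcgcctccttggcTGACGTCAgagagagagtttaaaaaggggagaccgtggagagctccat
Ins1: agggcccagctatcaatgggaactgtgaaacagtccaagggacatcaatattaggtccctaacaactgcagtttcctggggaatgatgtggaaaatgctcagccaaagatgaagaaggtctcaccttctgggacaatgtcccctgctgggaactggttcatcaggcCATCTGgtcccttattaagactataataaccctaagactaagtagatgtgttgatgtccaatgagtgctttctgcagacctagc
The Sst match lay 41 to 48 bases before the start, and of 12 hormone windows found it was the only one with these letters, against 1.55% of all windows. The CATCTG match in Ins1 lay 79 to 84 bases before the start. Those letters were in 6 of the 12 hormone windows, which were Cck, Gcg, Iapp, Ins1, Tac1 and Ucn3, against 14.4% of all windows. The 6 thus include Cck and Tac1, which fell, and the matches were not tested.

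Genes that process and package hormones were higher as well. Of 26 measured granule genes, 14 were higher and 0 lower (median 1.38), and limma called 17 as risen and 0 as fallen of 18 tested. Secretogranin 2, Scg2, a granule matrix protein, was at 11.2 ± 0.442 at E13.5, then 25.9 ± 1.12 at E15.5, then 323 at E18.5. The prohormone convertase Pcsk2, which cuts proglucagon and proinsulin, rose from 5.06 and 5.48 to 75.2 and 73.8 in the libraries (log2 difference 3.59, SE 0.0503, limma adjusted p = 1.81e-05). Chromogranin A, Chga, was at 111 at E13.5, then 96.95 at E15.5, then 1127 at E18.5, and Pcsk1n, an inhibitor of the other convertase, at 32.2 ± 0.913 at E13.5, then 40.8 ± 0.553 at E15.5, then 264 at E18.5. The convertase chaperone Scg5 rose from 13.7 ± 1.73 at E13.5 to 114 ± 0.0943 at E18.5. Carboxypeptidase E, Cpe, was at 183 at E13.5, then 142 at E15.5, then 823 at E18.5. Chromogranin B, Chgb, did not go with the others. It was at 817 at E13.5, then 163 at E15.5, then 586 at E18.5, the highest level of the list at E13.5. As with Gcg, the E15.5 level of Chga, Chgb and Cpe was the lowest of the 3.

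Many beta cell function genes were higher at E18.5. Of 22 measured genes, 15 were higher and 0 lower (median 1.92), and limma called 13 as risen and 1 as fallen of 15 tested. This list also holds Ins1, Ins2, Iapp, Npy and Ucn3, which are on the hormone list. Without these 5, 10 of 17 were higher and 0 lower (median 1.46), and limma called 11 as risen and 1 as fallen of 13 tested. The zinc transporter of insulin granules, Slc30a8, rose from 0.956 and 1.14 to 88.7 and 86.5 in the libraries (log2 difference 5.44, SE 0.0609, limma adjusted p = 1.64e-05). G6pc2, an islet glucose-6-phosphatase, was at 3.17 ± 0.0579 at E13.5, then 5.71 ± 0.341 at E15.5, then 73.2 ± 0.0180 at E18.5, and the insulin granule docking protein Sytl4 at 0.667 ± 0.00459 at E13.5, then 2.16 ± 0.252 at E15.5, then 16.8 ± 0.757 at E18.5. Glucose sensing genes had smaller differences. The glucose transporter Slc2a2 was at 6.09 ± 0.151 at E13.5, then 1.56 ± 0.117 at E15.5, then 18.4 ± 0.291 at E18.5, and the channel subunit Abcc8 at 12.9 at E13.5, then 11.3 ± 1.02 at E15.5, then 29.6 ± 0.214 at E18.5. The factors Pdx1 and Nkx6-1, both also in progenitors, did not pass the rule. Pdx1 was at 80.1 and 78.1 in the E13.5 libraries and 79.1 and 75.9 in those at E18.5 (limma adjusted p = 0.560), and Nkx6-1 was at 52.97 ± 0.109 at E13.5 and 42.7 ± 0.687 at E18.5.

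Alpha cell genes were divided. Of 13 measured genes, 3 were higher, Gcg and Cltrn among them, and 3 lower, Slc38a5 and Gc among them. The membrane protein Cltrn was at 144 at E13.5, then 77.3 ± 2.77 at E15.5, then 507 at E18.5. Slc38a5 was at 745 at E13.5, then 117 ± 0.898 at E15.5, then 291 at E18.5, and Gc, the vitamin D binding protein, at 391 at E13.5, then 474 at E15.5, then 22.9 ± 0.974 at E18.5, 17.1-fold lower at E18.5 than at E13.5. Gc was highest at E15.5, and Slc38a5 was lowest at E15.5. Transthyretin, Ttr, another alpha cell marker, was at 322 at E13.5, then 534 at E15.5, then 492 at E18.5.

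Of 26 endocrine progenitor and lineage factors, 5 were higher and 1 lower. The median of 0.49 fell to 0.04 at equal totals. Mafa, a factor of mature beta cells, rose from 0.374 ± 0.0391 at E13.5 to 6.19 ± 1.15 at E18.5 (log2 difference 2.38, SE 0.129, limma adjusted p = 2.46e-04). Neurod1, downstream of Neurog3, rose from 37.2 and 40.2 to 94.3 and 96.2 in the libraries (log2 difference 1.28, SE 0.0510, limma adjusted p = 1.22e-04). Isl1 was at 40.5 ± 0.0612 at E13.5, then 28.9 ± 1.12 at E15.5, then 103 at E18.5 and Pax6 at 4.48 ± 0.0186 at E13.5, then 3.90 ± 0.0621 at E15.5, then 11.2 ± 0.0151 at E18.5. Neurog3 itself, the switch into the endocrine lineage, was at 134 at E13.5, then 85.9 ± 1.08 at E15.5, then 200.5 at E18.5, a difference of 0.58 that did not pass the rule. Cdkn1a, a cell cycle inhibitor on the same list, was at 88.3 ± 5.598 and 116 at E13.5 and E18.5, and Fev, a factor that follows Neurog3, at 68.3 ± 2.30 and 61.02 ± 1.88. For Fev, Pax4 (67.02 ± 1.25 at E13.5, then 26.5 ± 0.896 at E15.5, then 66.3 ± 1.77 at E18.5) and Nkx2-2 (25.2 ± 0.630 at E13.5, then 14.8 ± 0.529 at E15.5, then 24.6 ± 2.09 at E18.5) the E18.5 level was close to that at E13.5 and the E15.5 level was lower.

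Duct genes were higher as a group, with exceptions. Of 23 measured genes, 13 were higher and 2 lower (median 1.27), and limma called 8 as risen and 1 as fallen of 13 tested. The phosphoprotein osteopontin, Spp1 (ENSMUSG00000029304, chromosome 5, 104435118 to 104441050, mm10), was the most abundant transcript at E13.5, and its levels were 4419 at E13.5, then 1742 at E15.5, then 16980.0 at E18.5. The secreted chaperone clusterin, Clu, was at 108 at E13.5, then 581 at E15.5, then 3213 at E18.5, a ratio of 29.8. Aquaporin 1, Aqp1, rose from 0.179 and 0.226 to 5.79 and 6.14 in the libraries (log2 difference 2.53, SE 0.0763, limma adjusted p = 7.20e-05). Carbonic anhydrase 2, Car2, which supplies bicarbonate, rose from 2.95 ± 0.262 at E13.5 to 21.6 ± 1.69 at E18.5. Bicc1 and Dcdc2a, genes of primary cilia and tubule growth, rose from 9.39 ± 0.213 at E13.5 to 55.9 ± 0.900 at E18.5 and from 2.94 ± 0.0141 at E13.5 to 20.5 ± 0.0391 at E18.5. The lower members were Car14, a membrane carbonic anhydrase, at 16.2 ± 0.221 at E13.5, then 5.06 ± 0.328 at E15.5, then 0.261 ± 0.0226 at E18.5, and the protease inhibitor Wfdc2, at 232 at E13.5, then 148 ± 15.6 at E15.5, then 91.8 ± 2.15 at E18.5. Ambp, a plasma protein precursor that is on this list and the liver-type list, was at 1629 at E13.5, then 1213 at E15.5, then 1243 at E18.5.

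Most general epithelial genes did not pass the rule. Of 32 measured keratin, cadherin and junction genes, 7 were higher and 1 lower, and the median of 0.24 turned to -0.14 at equal totals. Krt23 was at 5.66 ± 0.937 at E13.5, then 9.23 at E15.5, then 111 at E18.5. The pore-forming claudin Cldn2 rose from 0.520 and 0.339 to 22.8 and 18.7 in the libraries (log2 difference 3.92, SE 0.1197, limma adjusted p = 7.27e-05). The stem cell glycoprotein Prom1, found on duct cells, rose from 8.67 ± 0.0724 at E13.5 to 34.4 ± 0.0941 at E18.5. Krt19 was at 76.6 ± 1.44 at E13.5, then 82.5 at E15.5, then 217 at E18.5 and Krt18 at 528 at E13.5, then 1288 at E15.5, then 1419 at E18.5. Cldn6, a claudin of embryonic epithelia, was the lower member, at 451 at E13.5, then 274 at E15.5, then 205 at E18.5.

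Factors of the trunk and of progenitors did not change in one direction. Of 28 measured factors, 2 were higher and 2 lower, with a median of -0.05. Hhex, which is kept in ducts, was at 75.7 at E13.5, then 28.9 at E15.5, then 193 at E18.5, and the epithelial factor Ehf rose from 6.11 ± 0.150 at E13.5 to 31.4 ± 0.263 at E18.5 (log2 difference 2.19, SE 0.0432, limma adjusted p = 3.05e-05). Nkx6-2 fell from 10.5 and 9.69 to 0.736 and 0.904 in the libraries (log2 difference -2.61, SE 0.0784, limma adjusted p = 7.20e-05), and Id3, an inhibitor of bHLH factors, was at 137 at E13.5, then 159 ± 3.89 at E15.5, then 39.1 ± 0.407 at E18.5. Sox9, the factor of bipotent and duct cells, was at 123 at E13.5, then 48.5 ± 1.53 at E15.5, then 125 at E18.5. Its difference between the ends was 0.02, or -0.43 at equal totals, with a lower level between them. In the Notch pathway, which keeps trunk cells from the endocrine fate, 4 of 19 measured genes were lower and 0 higher. The ligands Dll1 and Dll3 fell from 6.72 ± 0.0842 at E13.5 to 1.06 ± 0.187 at E18.5 and from 9.92 ± 0.00263 at E13.5 to 2.23 ± 0.0508 at E18.5. Dlk1, a noncanonical ligand that is imprinted, was at 345 at E13.5, then 193 at E15.5, then 116 at E18.5, and the target gene Nrarp fell from 10.7 ± 0.936 at E13.5 to 3.41 ± 0.118 at E18.5 (log2 difference -1.41, SE 0.0742, limma adjusted p = 2.28e-04). The main target Hes1 was at 74.9 ± 0.504 at E13.5, then 153 at E15.5, then 85.5 ± 3.68 at E18.5 and Hes6 at 152 at E13.5, then 137 at E15.5, then 159 at E18.5.

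Genes of cell division were lower as a group. Of 39 measured replication genes, 23 were lower and 0 higher (median -1.13), and all 39 differences were negative. Of 49 measured mitosis genes, 33 were lower and 0 higher (median -1.12), with all 49 negative. The range was -1.85 to -0.31 for replication and -1.63 to -0.45 for mitosis. For replication genes limma called 0 as risen and 27 as fallen of 27 tested, and for mitosis genes limma called 0 as risen and 34 as fallen of 34 tested. The median difference stayed negative under every scaling tried. Rrm2, a ribonucleotide reductase subunit, was at 146 at E13.5, then 121 at E15.5, then 39.7 ± 1.73 at E18.5, and its partner Rrm1 fell from 19.1 and 19.7 to 6.12 and 6.38 in the libraries (log2 difference -1.49, SE 0.0472, limma adjusted p = 7.63e-05). The helicase subunits Mcm5 and Mcm4 fell from 55.01 ± 3.25 at E13.5 to 19.1 ± 0.243 at E18.5 and from 42.7 ± 1.39 at E13.5 to 15.54 ± 0.991 at E18.5. Uhrf1, which carries DNA methylation through replication, fell from 30.7 ± 0.509 at E13.5 to 10.5 ± 0.774 at E18.5. The clamp Pcna was at 178 at E13.5, then 193 at E15.5, then 82.95 ± 4.10 at E18.5. Of the mitotic genes, cyclin B1, Ccnb1, which shares 23.4% of its windows with other genes, fell from 68.1 and 67.9 to 21.5 and 21.5 (log2 difference -1.62, SE 0.0360, limma adjusted p = 4.10e-05). The checkpoint kinase Bub1b fell from 20.5 ± 0.335 at E13.5 to 5.92 ± 0.187 at E18.5, and Ube2c, which feeds the anaphase ubiquitin ligase, was at 179.6 at E13.5, then 273 at E15.5, then 58.7 ± 0.444 at E18.5. Birc5 fell from 83.6 ± 0.287 at E13.5 to 29.8 ± 0.992 at E18.5 and Kif2c from 17.9 ± 0.963 at E13.5 to 6.02 ± 0.0452 at E18.5. The libraries of Rrm1 and Ccnb1 did not overlap between the stages, which adds no support for genes picked as at least 2-fold apart. Most of the step fell after E15.5 for Ube2c, Birc5 and Pcna, whose E15.5 level was at or above that at E13.5.

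The entry to S phase showed the same direction in cyclins E. Among 14 cyclin D and E, CDK and inhibitor genes, 2 were higher and 3 lower. Ccne1 fell from 30.4 and 31.8 to 6.97 and 6.56 in the libraries (log2 difference -2.05, SE 0.0515, limma adjusted p = 5.18e-05), and Ccne2 from 17.04 ± 0.307 at E13.5 to 4.92 ± 0.300 at E18.5. Cdk4 was at 446 at E13.5, then 355 at E15.5, then 216 at E18.5. The inhibitors Cdkn2c (p18) and Cdkn2b (p15) rose from 1.17 ± 0.161 at E13.5 to 6.18 ± 0.411 at E18.5 and from 1.27 ± 0.733 at E13.5 to 5.79 ± 0.856 at E18.5. The abundant inhibitor Cdkn1c (p57), which is imprinted, was at 177 at E13.5, then 112 ± 2.54 at E15.5, then 138 at E18.5.

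**Figure D3:**
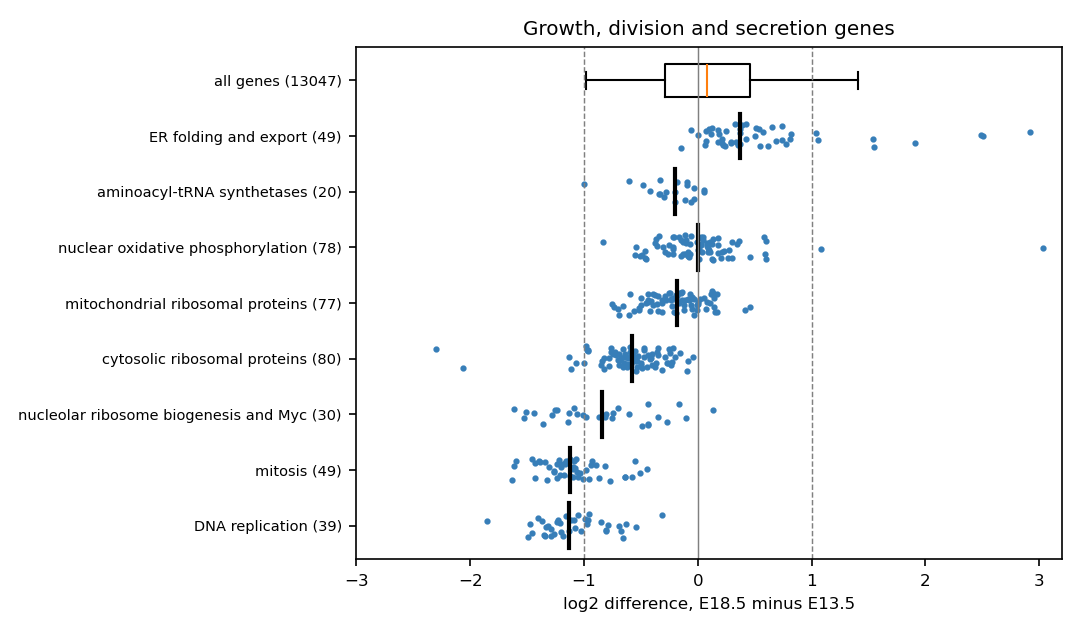
Log2 difference of each measured member (dots, spread vertically for visibility) of 8 gene lists, with the list median as a black bar. The box shows the quartiles and 5th to 95th percentiles of all 13047 genes, the dashed lines a 2-fold difference. DNA replication and mitosis lie left of 0 throughout, with medians of -1.13 and -1.12.

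Ribosome production went the same way at a smaller size. Of 30 measured nucleolar and Myc genes, 12 were lower and 0 higher (median -0.84), and limma called 0 as risen and 16 as fallen of 19 tested. Myc, the growth regulator, fell from 56.4 and 57.8 to 18.48 and 17.4 in the libraries (log2 difference -1.62, SE 0.0476, limma adjusted p = 7.01e-05), with 50.3 ± 1.73 at E15.5. Nucleophosmin, Npm1, which shares 24.3% of its windows with other genes, was at 487 at E13.5, then 528 at E15.5, then 169 at E18.5, and nucleolin, Ncl, at 118 at E13.5, then 112 at E15.5, then 40.6 ± 1.10 at E18.5. The pseudouridine synthase Dkc1 fell from 56.7 ± 1.47 at E13.5 to 20.3 ± 0.442 at E18.5, and its partner Gar1 was at 109 at E13.5, then 95.3 ± 3.76 at E15.5, then 41.6 ± 0.185 at E18.5. Of 80 cytosolic ribosomal protein genes 6 were lower and 0 higher, and all 80 differences were negative (median -0.58). Many of these genes have processed copies, so single levels are uncertain. The furthest were Rpl7a, with 37.9% shared windows, at 20.56 ± 4.38 and 3.38 ± 0.384, and Rpl38, with 27.4%, at 19.8 ± 4.44 and 3.96 ± 1.11. Mitochondrial ribosomal genes had a median of -0.18 over 77 genes with none past the rule in either direction. Of 20 aminoacyl-tRNA synthetases, 1 was lower, Vars, at 31.5 ± 2.34 at E13.5, then 39.5 ± 1.30 at E15.5, then 15.2 ± 0.295 at E18.5.

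Several genes of fetal growth control were lower. Of 27 measured oncofetal and imprinted genes, 7 were lower and 1 was higher (median -0.68). Mest was at 171 at E13.5, then 145 at E15.5, then 22.9 ± 0.681 at E18.5, and the imprinted non-coding RNA H19 at 239 at E13.5, then 1239 at E15.5, then 36.8 ± 0.777 at E18.5. The E15.5 level of H19 exceeded both ends. The chromatin proteins Hmga1, with 54.95% shared windows, and Hmga2, both typical of embryonic cells, were at 235 at E13.5, then 177 at E15.5, then 39.9 ± 0.964 at E18.5 and at 18.7 ± 1.04 at E13.5, then 15.4 ± 0.109 at E15.5, then 2.68 ± 0.0972 at E18.5. Nnat, an imprinted gene with a role in insulin secretion, was the exception at 142 at E13.5, then 209 at E15.5, then 1598 at E18.5. Of 21 polycomb and DNA methylation genes, 3 were lower. These were Uhrf1, the histone methyltransferase Ezh2, at 17.6 ± 1.47 at E13.5 and 8.02 ± 0.192 at E18.5, and Cbx2, at 6.34 ± 0.222 at E13.5, then 2.59 ± 0.236 at E15.5, then 2.51 ± 0.109 at E18.5.

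Several immediate early genes, which respond fast to stimuli, were higher. Of 20 measured genes, 8 were higher and 1, Myc, lower (median 0.95). Ier3 rose from 12.1 and 9.53 to 106 and 113 in the libraries (log2 difference 3.23, SE 0.115, limma adjusted p = 1.00e-04), with 40.6 ± 0.563 at E15.5. The phosphatase Dusp1 was at 20.3 at E13.5, then 28.7 at E15.5, then 117 at E18.5, Junb at 84.8 ± 1.58 at E13.5, then 272 at E15.5, then 471 at E18.5 and Fos at 165 at E13.5, then 630.1 at E15.5, then 735 at E18.5. Socs3, a brake on cytokine signalling, rose from 4.05 ± 0.108 at E13.5 to 25.2 ± 0.466 at E18.5. The abundant Ier2 was at 425 at E13.5, then 1169 at E15.5, then 837 at E18.5 and Egr1 at 196 at E13.5, then 331 at E15.5, then 307 at E18.5. Annexins, calcium-dependent membrane binders, were higher in 6 of 10 measured and lower in 0 (median 1.24). Anxa5 was at 38.98 ± 2.12 at E13.5, then 49.03 ± 0.523 at E15.5, then 425 at E18.5 and Anxa2 at 38.01 ± 2.13 at E13.5, then 43.3 ± 0.639 at E15.5, then 143 at E18.5. Anxa3, also on the duct list, rose from 0.439 ± 0.0912 at E13.5 to 7.92 ± 0.793 at E18.5, and Anxa6 was at 41.4 ± 1.90 at E13.5, then 40.5 ± 0.732 at E15.5, then 107 at E18.5.

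Signalling pathways had few members past the rule. In the Wnt pathway 2 of 22 measured genes were higher and 3 lower. The secreted inhibitor Frzb rose from 0.598 and 0.513 to 17.6 and 18.01 in the libraries (log2 difference 3.60, SE 0.0592, limma adjusted p = 2.14e-05), and the ligand Wnt4 was at 1.52 ± 0.0733 at E13.5, then 1.36 ± 0.166 at E15.5, then 20.3 at E18.5. The receptor Fzd2 fell from 12.4 ± 0.152 at E13.5 to 3.25 ± 0.336 at E18.5, the inhibitor Sfrp5 from 15.03 ± 0.133 at E13.5 to 4.67 ± 0.684 at E18.5 and the ligand Wnt7b from 13.3 ± 1.17 at E13.5 to 5.63 ± 0.335 at E18.5. Of 16 FGF and EGF receptor genes, 2 were higher. The receptor Fgfr3 rose from 1.77 ± 0.0502 at E13.5 to 9.93 ± 0.00578 at E18.5 (log2 difference 1.98, SE 0.0531, limma adjusted p = 5.54e-05), and the EGF family ligand Hbegf was at 3.60 at E13.5, then 11.3 at E15.5, then 8.58 at E18.5. None of 6 Hedgehog genes passed the rule, but 5 of the 6 differences were negative (median -0.61). Limma called 0 as risen and 4 as fallen of 5 tested. The ligand Ihh had a difference of -2.24 and missed the rule only by its level, below 5 FPKM. Of 15 Hippo genes, 2 were higher, and the direction of the list median changed with the scaling. The YAP target Ccn2 rose from 3.68 ± 0.283 at E13.5 to 21.3 ± 0.741 at E18.5 (log2 difference 2.25, SE 0.0638, limma adjusted p = 6.44e-05), and Wwtr1, which encodes TAZ, from 2.12 ± 0.300 at E13.5 to 5.50 ± 0.0876 at E18.5. Of 18 basement membrane and integrin genes, 2 were higher, Col4a1 (3.04 ± 0.166 and 10.5 ± 1.06) and Itga3 (2.70 ± 0.249 and 7.04 ± 0.170). Limma, without a 2-fold minimum, called 4 Wnt genes as risen and 10 as fallen of 18 tested. For the FGF and EGF list it called 9 as risen and 1 as fallen of 13, and for the Hippo list 5 and 4 of 12. For the basement membrane and integrin list it called 13 and 2 of 17, against 37.4% risen and 25.4% fallen over all tested genes.

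Metabolic lists showed no shared direction. Of 16 measured glycolytic genes, 2 were higher and 1 lower, and the median of 0.27 turned to -0.15 at equal totals. Aldolase C, Aldoc, rose from 6.29 and 6.97 to 98.05 and 98.4 in the libraries (log2 difference 3.70, SE 0.0566, limma adjusted p = 1.81e-05), and Ldhb, with 20.99% shared windows, rose from 28.8 ± 0.187 at E13.5 to 71.03 ± 4.27 at E18.5. Gapdh was counted at 12.3 ± 4.33 at E13.5 and 1.74 ± 0.0325 at E18.5, far below the other glycolytic enzymes, and shares 24.7% of its windows with other genes, so its level is uncertain. Enolase 1, Eno1 (25.99% shared), was at 515 at E13.5, then 464 at E15.5, then 943 at E18.5. Of 19 amino acid transporters, 1 was higher, Slc7a7 (1.68 ± 0.171 and 5.02 ± 0.0166), and 2 were lower, Slc38a5 and Slc43a1 (5.02 ± 0.239 and 1.39 ± 0.382). Of 78 nuclear genes of oxidative phosphorylation, 1 was higher. It was Cox6a2, the heart and muscle type of a cytochrome oxidase subunit, listed at 0 at E13.5 and E15.5 and at 7.19 ± 1.08 at E18.5.

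**Figure D4:**
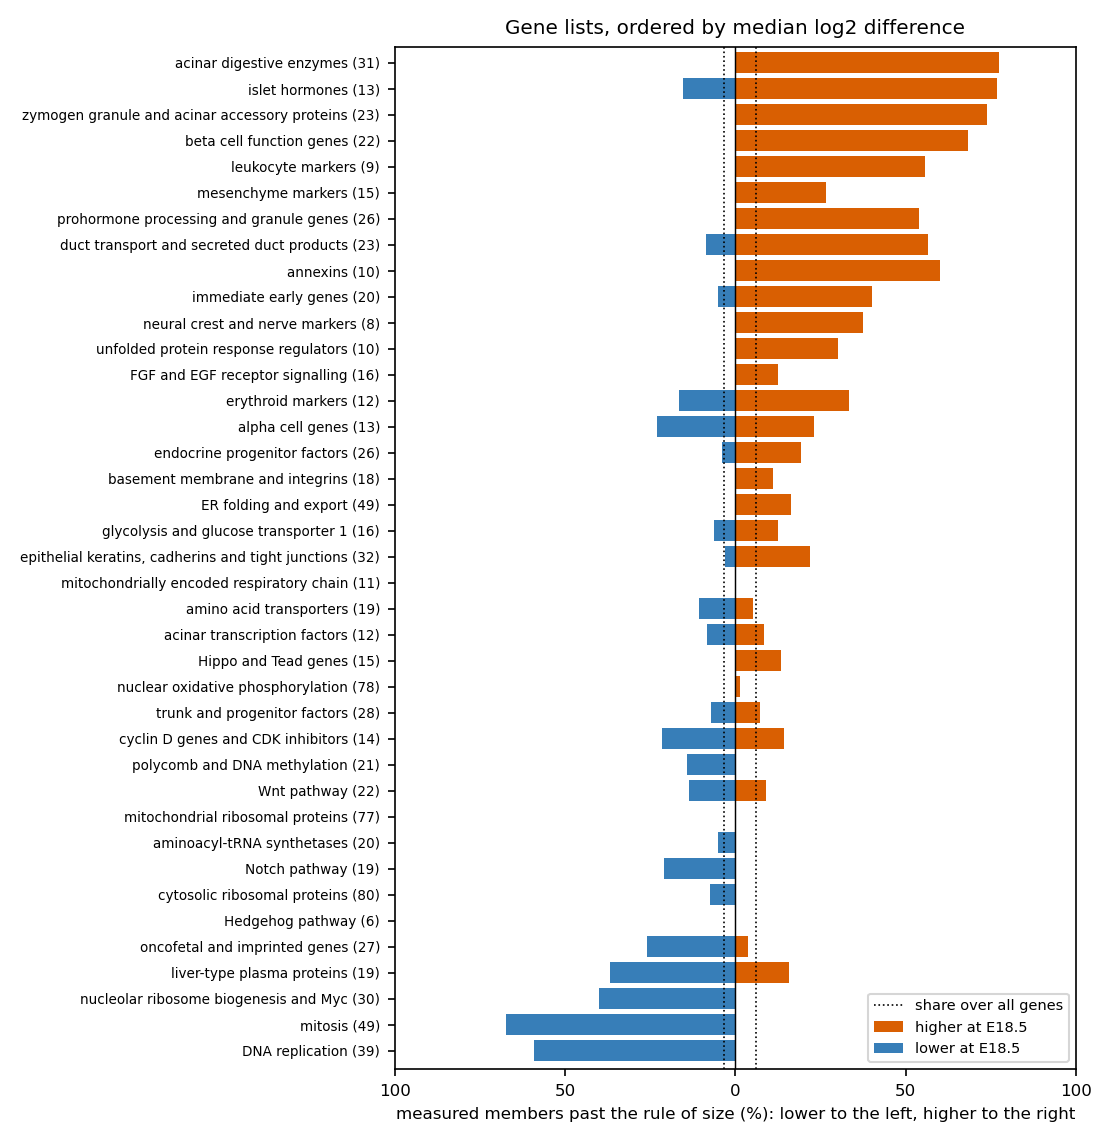
Share of measured members (percent, number of members in brackets) past the rule of size for 39 gene lists with at least 6 measured members, higher at E18.5 to the right and lower to the left, ordered by median difference. Dotted lines mark the share over all genes, 6.09% higher and 3.41% lower. Acinar enzymes, islet hormones and zymogen granule genes extend furthest right, and mitosis and DNA replication furthest left.

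Plasma protein and embryonic globin genes were among the largest decreases. Of 19 measured liver-type plasma protein genes, 7 were lower and 3 higher. Serpina6, the corticosteroid-binding globulin (ENSMUSG00000060807, chromosome 12, 103646630 to 103657212, mm10), was at 1352 at E13.5, 3350.0 at E15.5 and 41.9 and 39.9 in the E18.5 libraries, a 33.1-fold lower level at E18.5 than at E13.5. The alpha-1 antitrypsin genes share sequence with one another. Serpina1e (34.6% shared windows) was at 133 and 2.49 ± 0.778 at E13.5 and E18.5, Serpina1b (29.4%) at 108 and 3.71 ± 0.584 and Serpina1c (74.2%) at 56.4 ± 2.19 and 2.50 ± 0.763. Alpha-fetoprotein, Afp, was at 26.4 at E13.5, then 20.64 ± 0.190 at E15.5, then 1.33 ± 0.176 at E18.5. Albumin, Alb, the main liver product, went the other way but stayed low, from 0.447 and 0.658 to 5.23 and 5.08 in the libraries. The retinol carrier Rbp4 was at 372 at E13.5, then 365 at E15.5, then 1632 at E18.5 and so was among the higher members. Summed over the 27 listed genes, the list was at 4224 and 3823. Ambp and Rbp4, of which Rbp4 was higher at E18.5, make up most of the second value.

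Other genes among the 15 largest decreases were Tcf15, a bHLH factor, at 36.05 ± 3.15 at E13.5, then 10.8 at E15.5, then 1.44 ± 0.118 at E18.5, and Nepn, a secreted proteoglycan, at 22.2 ± 1.15 at E13.5, then 3.19 ± 0.441 at E15.5, then 0.333 ± 0.139 at E18.5. The extracellular protein vitronectin, Vtn, was at 249.5 at E13.5, then 271 at E15.5, then 21.9 ± 0.0725 at E18.5. Aldh1b1, a mitochondrial aldehyde dehydrogenase known from pancreatic progenitors, was at 261 at E13.5, then 306 at E15.5, then 27.4 ± 0.235 at E18.5. The MAP kinase phosphatase Dusp9 was at 22.95 ± 0.0459 at E13.5, then 12.2 ± 0.463 at E15.5, then 1.68 ± 0.0148 at E18.5, and the actin bundler Fscn1 at 23.2 ± 1.19 at E13.5, then 2.43 ± 0.0124 at E15.5, then 1.72 ± 0.453 at E18.5.

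Markers of other tissues differed between the samples, and their part in the results above was not tested. Embryonic globins were lower. Hbb-y was at 125 ± 12.3 at E13.5 and listed at 0 at E18.5, at least 674-fold lower by the floor of 3 reads over both libraries. Hba-x was at 15.3 ± 0.505 and 0, at least 123-fold lower. Adult globins were higher: Hbb-bs (53.2% shared windows) was at 31.9 ± 0.229 at E13.5 and 285 ± 6.27 at E18.5, and Hba-a1 (72.3%) at 78.1 ± 4.56 at E13.5 and 304 ± 1.10 at E18.5. Over the 15 erythroid genes found the sum was 291 and 670, with 4 measured genes higher and 2 lower of 12. Of the 27 mesenchymal markers, Tagln and Thy1 were at 0 at E13.5, and Nkx3-2 and Nkx2-5 at E18.5. Of the 15 measured, 4 were higher. They were Dcn (0.472 ± 0.0210 and 14.7), Lum (0.339 ± 0.0346 and 11.4 ± 0.0828), Col3a1 (0.755 ± 0.146 and 9.55 ± 0.0428) and Col1a1 (0.4996 ± 0.00428 and 5.51 ± 0.428). None of the 16 leukocyte markers was at 0, and 5 of 9 measured were higher and 0 lower. Lyz2 rose from 1.19 ± 0.224 at E13.5 to 29.3 ± 1.06 at E18.5, C1qb from 1.25 ± 0.144 at E13.5 to 10.1 ± 0.322 at E18.5, and C1qa from 13.3 ± 1.33 at E13.5 to 66.4 ± 3.83 at E18.5 with 176 ± 1.32 at E15.5. Of the 10 higher genes listed at 0 at E13.5, Cma1 and Tpsb2 are mast cell proteases, singled out after their values were seen, at 8.85 ± 1.34 and 13.7 at E18.5. The 16 nerve markers summed to 32.0 and 75.7, with Phox2a at 0 at E18.5 and 3 of 8 measured higher. S100b was at 0.148 ± 0.0400 at E13.5 and 15.9 ± 0.729 at E18.5 and Tubb3, also made by endocrine cells, at 13.8 ± 0.383 at E13.5 and 33.6 ± 0.0960 at E18.5. The 18 endothelial markers summed to 14.8 and 12.3, most of it Egfl7, with 5 listed at 0 at E13.5 (Flt1, Tek, Robo4, Sox18 and Erg) and 6 at E18.5 (Cdh5, Kdr, Tek, Tie1, Robo4 and Erg). Mesothelial markers other than Krt19 were low, with Msln at 1.28 and 2.44.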

How the data were processed

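RNA sequencing of 4 stages, with 1 sample per stage, gave 1 FPKM per Ensembl gene and stage, which the authors deposited as an average, per the file headers. Reads were processed with HISAT2 2.0.5 on mm10, per the submitters' processing notes. The sources used here do not name the counting tool. Symbols and exon lengths came from GENCODE M21, and 54495 of 54532 IDs had a symbol.

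Scaling used median-of-ratios factors over the 9884 genes that reached 1 FPKM in all 4 stages (1.03 at E13.5, 1.03 at E15.5, 0.961 at E18.5), and 1 FPKM was added before log2. Genes were called when at least 2-fold apart with the higher level at 5 FPKM or more. Whole reads of the 2 libraries behind each mean were recovered from the deposited FPKM values and exon lengths where a single pair gave the mean, with a tolerance of 0.75 in the last printed digit and no more than 0.05 pairs expected by chance. That split 93.9% of the means attempted at each stage compared. This rests on the values, not on a label. Limma 3.58.1 (R 4.3.3, mean-variance trend, Benjamini-Hochberg) compared the recovered libraries of E13.5 and E18.5. Its code was also run on simulated independent libraries with the same fixed spread for all genes. That run cannot show whether the p-values hold for the recovered libraries, which may be technical. Depth beyond these reads is unknown.

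The members and the 41 gene lists were chosen with earlier results of these data known. Named genes were the 15 largest differences per direction at 10 FPKM or more, without predicted genes, pseudogenes, histones and mitochondrial genes, up to 5 largest past the rule and 3 highest per list, the cell type markers and the 5 most abundant genes of each stage. Some genes that meet this rule are not reported here. Other list members were named after their values were seen, and so were the cAMP and insulin E box motifs. Shared windows are 50-base stretches of a gene's exons also found in other genes. Alternatives were other scalings, pseudocounts and level minimums, the library test, and leaving out each library.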

Additional observations from a re-analysis of the deposited data

How the results depend on the processing

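Of the 794 higher and 445 lower genes, 706 and 445 were also called without further scaling, which called 547 as lower. The deposited values already carry a size value of each library, so this setting is not free of scaling. Median of ratios over the 2 stages alone gave 741 and 511, a pseudocount of 0.1 gave 898 and 522, and a minimum of 10 FPKM gave 565 and 351. Leaving out the 1 FPKM filter gave 794 and 445 again. It could give nothing else, because the rule of size still asks for 5 FPKM. Setting the samples to the same total FPKM gave 472 higher and 1186 lower, and a pseudocount of 5 FPKM gave 482 and 243. The cause of these moves was not tested, beyond the -0.45 shift that equal totals give to every log2 ratio. Limma with at least 2-fold called 1005 and 456. Without 1 library in turn, chosen after seeing the data, limma called 3178 to 3314 as risen and 2034 to 2217 as fallen, against 4081 and 2771 with all libraries. The stage left with 1 library is then assumed to vary like the other. The direction of 0 of 171 named called genes reversed under any scaling or pseudocount, while the median of 9 of 41 lists changed sign. The first count was fixed in advance. Called genes are at least 2-fold apart, the largest scaling shift was -0.45, and a pseudocount cannot change a sign. No paired analysis was possible because the labels give 1 sample per stage and the recovered libraries carry no number that pairs them. Genes with too many reads to split, including most abundant enzymes and hormones, have no library check.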
